A study of Mus musculus with 12 samples.

Results

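The TGF-beta and BMP ligands and receptors examined here are 10 genes, namely the ligands Tgfb1, Tgfb2 and Tgfb3, the receptors Tgfbr1, Tgfbr2 and Tgfbr3, and the BMP ligands Bmp4, Bmp5, Bmp6 and Bmp7. They were chosen by symbol, through the gene identifiers of the mouse genome GRCm38, and are 10 of the 50563 genes in the count table. All 10 passed the filter on low counts, which kept 15688 genes. RNA-Seq was made from the brain cortex of 12 E4FAD mice, 1 library per mouse. Every mouse had the genotype APOE4+/+, 5FAD-/+, that is, human APOE4 in place of the mouse gene and 1 copy of transgenes with familial Alzheimer's disease mutations. The CTRL group held 7 mice, of which 2 were 12 months old and 5 were 14 months old, that received vehicle by oral gavage. The DPAn-6 group held 5 mice, of which 2 were 12 months old and 3 were 14 months old, that received 700 mg/kg of the omega-6 fatty acid docosapentaenoic acid daily for 3 weeks. Antioxidants were given in both groups. There was no group without the transgenes, so each comparison is between DPAn-6 and vehicle in mice that carry them. The study's methods give 4 females and 3 males in CTRL and 3 females and 2 males in DPAn-6, and which mouse was of which sex was not labelled.

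TGF-beta ligands are secreted in a latent form and, once released, bind a complex of type I and type II receptor kinases that phosphorylate SMAD proteins, which then enter the nucleus. BMPs are relatives of TGF-beta that use other type I and type II receptors and a different branch of SMADs. In the brain, TGF-beta signalling is needed for the mature identity of microglia, and BMPs made by the meninges and other cells act on glia, neurons and vessels.

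Total counts ranged from 15339098 to 19500154 in CTRL and from 15208803 to 26520251 in DPAn-6. Levels are given as log2 CPM, in which every count, after 0.5 was added, was divided by the total of its library so that mice can be compared. Tbr1, a marker of cortical neurons, had at least 2744 counts in every library. Over all genes, 243 of 15688 had an adjusted p below 0.05 by edgeR's quasi-likelihood test, which is 1.55%. Of these, 179 were lower in DPAn-6 (1.14% of the genes tested) and 64 were higher (0.408%). The library of CTRL replicate 3 stood apart, and without it 953 genes passed. The libraries of CTRL replicates 2, 3 and 5 held more choroid plexus RNA than the others, so the fold changes of the 10 genes are also given without them.

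Of the 10 genes, 9 had a log2 fold change below 0 and 1, Tgfb3, lay above 0, where 51.3% of all genes tested lay below 0. The median log2 fold change of the 10 genes was −0.37, against −0.0047 over all genes tested. Only Bmp6 had an adjusted p below 0.05 by edgeR. An unadjusted p below 0.05 was found for 8 of the 10, all lower in DPAn-6, whereas 9.02% of all genes tested were lower at that level and 5.51% were higher. By the exact permutation test of mean log2 CPM, 6 of the 10 had a p below 0.05, namely Tgfb2, Tgfbr2, Tgfbr3, Bmp5, Bmp6 and Bmp7. How many of all genes tested had such a p by this test was not counted, so the 6 cannot be set against a share. The groups did not overlap for 1 gene, Bmp5, and 1.49% of all genes tested were lower in all DPAn-6 mice than in any CTRL mouse. In bulk tissue, fewer cells of a type and less RNA per cell cannot be told apart.

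**Figure D1:**
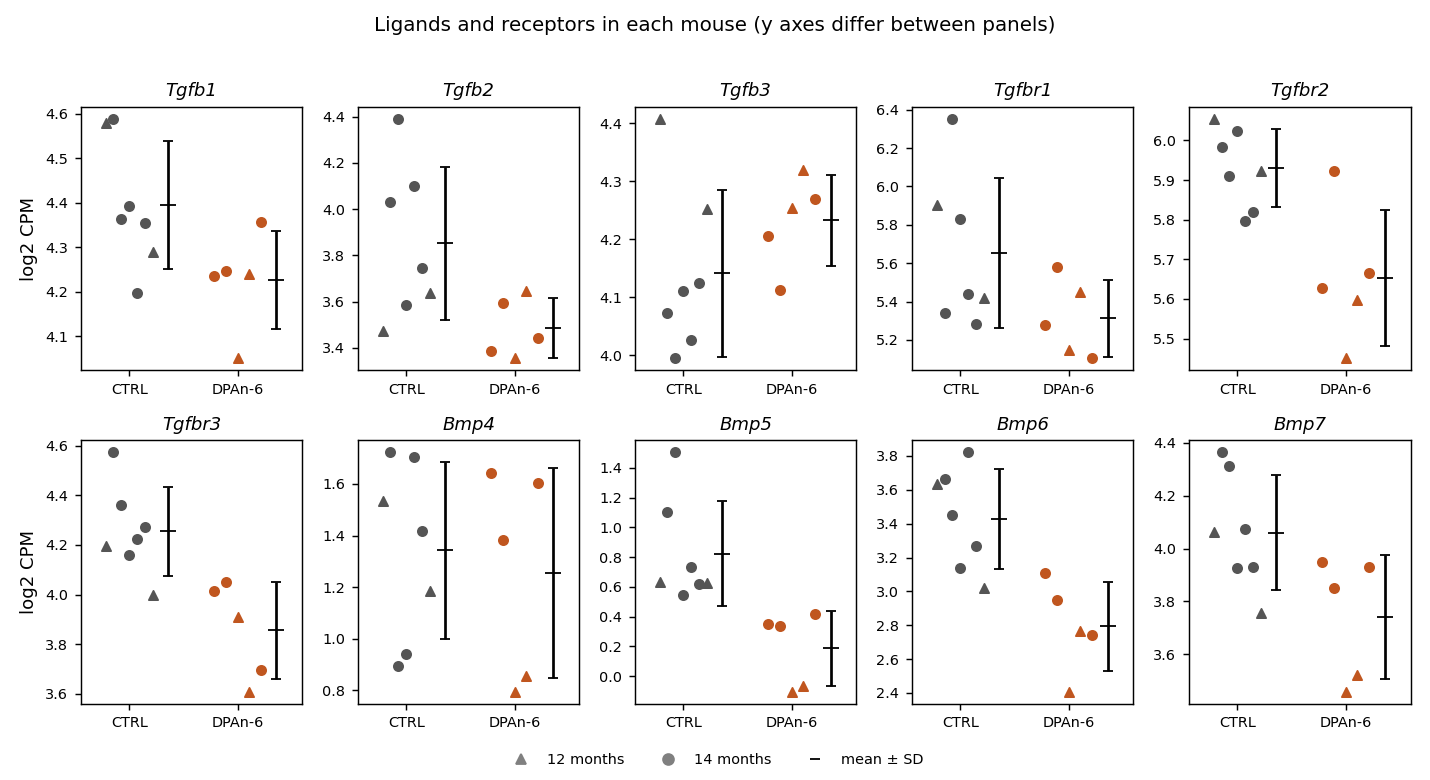
Level of each gene in each mouse, as log2 CPM on the y axis, with CTRL in grey and DPAn-6 in orange, triangles for mice of 12 months and circles for mice of 14 months, and bars for the mean ± SD. The 5 DPAn-6 mice lay below all 7 CTRL mice for Bmp5, 4 of 5 did for Bmp6 and Tgfbr2, and the groups were intermixed for Tgfb3 and Bmp4.

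The sequences before the start sites of Bmp5, Tgfbr2 and Bmp4 are shown first, to set the gene without overlap between the groups beside a receptor and beside a BMP with a fold change near 0. They are the bases from 250 to 11 before the RefSeq start (240 bases, build GRCm38.p6), written 5′ to 3′ on the strand of the gene. Of the 10 genes, 7 were matched in the RefSeq promoter table. Capitals mark matches, on either strand, to 6 motifs: CAGAC (a SMAD element), GGGCGG (the GC box), CCAAT (the CCAAT box), CACGTG (an E-box), TATAAA (the TATA box) and TGANTCA (the AP-1 site). The windows lie at chr9:75775115-75775354 on the plus strand for Bmp5, at chr9:116175374-116175613 on the minus strand for Tgfbr2 and at chr14:46390680-46390919 on the minus strand for Bmp4.
Bmp5: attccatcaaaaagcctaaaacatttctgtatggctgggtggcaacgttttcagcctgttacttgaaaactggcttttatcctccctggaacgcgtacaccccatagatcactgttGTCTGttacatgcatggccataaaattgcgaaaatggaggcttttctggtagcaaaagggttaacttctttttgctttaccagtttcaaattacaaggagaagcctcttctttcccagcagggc
Tgfbr2: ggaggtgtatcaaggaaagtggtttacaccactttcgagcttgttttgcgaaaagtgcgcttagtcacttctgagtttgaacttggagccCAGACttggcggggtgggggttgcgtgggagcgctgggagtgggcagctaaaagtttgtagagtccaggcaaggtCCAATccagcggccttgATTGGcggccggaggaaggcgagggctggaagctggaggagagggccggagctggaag
Bmp4: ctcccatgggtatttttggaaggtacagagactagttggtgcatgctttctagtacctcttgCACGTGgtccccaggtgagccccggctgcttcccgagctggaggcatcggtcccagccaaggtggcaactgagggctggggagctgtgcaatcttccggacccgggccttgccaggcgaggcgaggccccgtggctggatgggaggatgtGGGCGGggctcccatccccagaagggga
The Bmp5 window held 1 CAGAC match and none to the other motifs. Tgfbr2 had 1 CAGAC match and 2 CCAAT matches, which do not overlap. Bmp4 had 1 GC box and 1 E-box and no CAGAC match. CAGAC occurred in 40.9% of all 32851 promoter windows of the same length, the GC box in 31.3%, CCAAT in 33.0%, the E-box in 5.69%, the TATA box in 12.1% and the AP-1 site in 6.58%. Bmp5 had a GC content of 42.9%, below the median of 52.1% over all windows, while Tgfbr2 had 57.5% and Bmp4 63.8%. The windows of Tgfb1 and of Tgfbr1 at its annotated start, which like those shown hold no exon bases, had no CAGAC match, and a second Tgfbr1 window had 1. The windows of Tgfb2, with 2 CAGAC matches, and of Bmp6, with 1, hold exon bases and are not shown. All 7 matched genes had a log2 fold change below 0, so the match cannot be set against the direction of change. These matches are letters in a window, and binding was not measured.

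The TGF-beta ligands were detected in every mouse. Tgfb1 (ENSMUSG00000002603, chr7:25687002-25705077), the ligand that microglia make and depend on, lay at 4.20, 4.36 and 4.59 log2 CPM in the lowest, median and highest CTRL mouse. The DPAn-6 mice had 4.24, 4.25, 4.05, 4.24 and 4.36 log2 CPM. All 5 lay below the CTRL mean of 4.39 ± 0.14 (SD, n = 7), but only 1 lay below every CTRL mouse, so the groups overlapped. Tgfb1 came to a log2 fold change of −0.19 in edgeR's fit (standard error 0.09, adjusted p = 0.323), and the exact permutation test gave p = 0.0631. It stayed at −0.19 without CTRL replicates 2, 3 and 5.

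Tgfb2 (ENSMUSG00000039239, chr1:186622792-186705989) encodes the isoform that neurons and astrocytes make and that needs betaglycan to bind its receptors well. It ranged from 3.47 over a median of 3.74 to 4.39 log2 CPM in CTRL, the highest being replicate 3. The values in DPAn-6 mice were 3.39, 3.59, 3.36, 3.65 and 3.44 log2 CPM, and 3 of these were lower than any CTRL value. Tgfb2 came to a log2 fold change of −0.42 in edgeR's fit (standard error 0.15, adjusted p = 0.204), and the exact permutation test gave p = 0.0391. With CTRL replicates 2, 3 and 5 left out together it was −0.14 (standard error 0.09).

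Tgfb3 (ENSMUSG00000021253, chr12:86056745-86079041), the third isoform, was the 1 gene of the 10 with a higher mean in DPAn-6. Its CTRL mice had 3.99 at the lowest, 4.11 at the median and 4.41 log2 CPM at the highest, and the DPAn-6 mice had 4.21, 4.11, 4.25, 4.32 and 4.27. No DPAn-6 mouse exceeded every CTRL mouse. Tgfb3 came to a log2 fold change of 0.06 in edgeR's fit (standard error 0.08, adjusted p = 0.796). It was −0.01 with CTRL replicates 2, 3 and 5 left out.

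Among the receptors, Tgfbr1 (ENSMUSG00000007613, chr4:47353222-47414931) encodes the type I kinase that phosphorylates SMAD2 and SMAD3. CTRL mice had 5.28, 5.44 and 6.35 log2 CPM at the lowest, median and highest, and replicate 3 was again the highest. DPAn-6 mice had 5.28, 5.58, 5.15, 5.45 and 5.10 log2 CPM, of which 3 lay below every CTRL mouse. Tgfbr1 came to a log2 fold change of −0.41 in edgeR's fit (standard error 0.18, adjusted p = 0.306), and the exact permutation test gave p = 0.102. Without CTRL replicate 3 alone it was −0.25 (standard error 0.12), and without CTRL replicates 2, 3 and 5 it was −0.33 (standard error 0.13).

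Tgfbr2 (ENSMUSG00000032440, chr9:116084293-116175360) encodes the type II kinase that binds the ligand and activates TGFBR1. It had 5.80, 5.92 and 6.05 log2 CPM in the lowest, median and highest CTRL mouse. In DPAn-6 the values were 5.63, 5.92, 5.45, 5.60 and 5.66, so that 4 mice lay below every CTRL mouse and replicate 2 lay at the CTRL median. Tgfbr2 came to a log2 fold change of −0.30 in edgeR's fit (standard error 0.08, adjusted p = 0.0886), and the exact permutation test gave p = 0.00884. The adjusted p was below 0.05 in 5 of 28 alternative analyses. Leaving out single mice gave adjusted p-values from 0.0323 to 0.273 by edgeR, below 0.05 in 2 of 12 cases. Without CTRL replicates 2, 3 and 5 it was −0.31 with an adjusted p of 0.0486 by edgeR, and with the 14-month mice alone it was −0.19 with an adjusted p of 0.658.

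Tgfbr3 (ENSMUSG00000029287, chr5:107106570-107289629) encodes betaglycan, a co-receptor without a kinase that presents TGF-beta and also binds inhibins and BMPs. Its CTRL values were 3.997, 4.22 and 4.57 log2 CPM at the lowest, median and highest. The DPAn-6 mice had 4.02, 4.05, 3.91, 3.61 and 3.70, and 6 of 7 CTRL mice lay above all of them. Tgfbr3 came to a log2 fold change of −0.42 in edgeR's fit (standard error 0.11, adjusted p = 0.0784), and the exact permutation test gave p = 0.00505. The adjusted p was below 0.05 in 3 of 28 alternative analyses. Leaving out single mice gave adjusted p-values from 0.0360 to 0.217 by edgeR, and the 1 below 0.05 came without CTRL replicate 3, when Tgfbr2 and Bmp6 passed too. Without CTRL replicates 2, 3 and 5 together, Tgfbr3 had −0.31 with an adjusted p of 0.111 by edgeR.

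Bmp6 and Bmp5 had the most negative log2 fold changes of the 10 genes. Bmp6 (ENSMUSG00000039004, chr13:38345107-38500302) encodes a BMP known for its release from endothelium and its control of iron through hepcidin. The lowest, median and highest CTRL mouse had 3.02, 3.45 and 3.82 log2 CPM. The DPAn-6 mice had 3.11, 2.95, 2.41, 2.77 and 2.74, so 4 of the 5 lay below every CTRL mouse. With means of 3.43 ± 0.30 for the CTRL mice (SD, n = 7) and 2.79 ± 0.26 for the DPAn-6 mice (SD, n = 5), the change of Bmp6 by edgeR was −0.67 on the log2 scale (standard error 0.16), with an adjusted p of 0.0464, and the exact permutation test gave p = 0.00631. On the linear scale the level fell by 37.1%. The adjusted p stayed below 0.05 in 8 of 28 alternative analyses, while the direction was the same in all 28. Leaving out each mouse in turn gave adjusted p-values from 0.0183 to 0.155 by edgeR, below 0.05 in 2 of 12. With CTRL replicates 2, 3 and 5 left out, edgeR gave −0.49 with an adjusted p of 0.0848. Exons of Bmp6 share 224 bases with Txndc5 on the opposite strand, which had 598 to 1771 counts against 103 to 275 for Bmp6. The log2 fold change of Txndc5 was 0.04 (adjusted p = 0.917 by edgeR), and whether reads were counted by strand is not given in the sources used here.

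Bmp5 (ENSMUSG00000032179, chr9:75775364-75900310), a close relative of Bmp6 and Bmp7, was the least abundant, with 14 to 43 counts per mouse. CTRL mice had 0.55, 0.63 and 1.50 log2 CPM at the lowest, median and highest, with replicate 3 the highest. All of the DPAn-6 values, 0.35, 0.33, −0.10, −0.07 and 0.42 log2 CPM, lay below all of the CTRL values. The lowest values were those of the 2 DPAn-6 mice aged 12 months. Bmp5 came to a log2 fold change of −0.67 in edgeR's fit (standard error 0.21, adjusted p = 0.136), and the exact permutation test gave p = 0.00126, the smallest that groups of 7 and 5 mice allow. The highest DPAn-6 mouse and the lowest CTRL mouse were 0.42 and 0.55 log2 CPM. Without CTRL replicates 2, 3 and 5 the log2 fold change was −0.41 (standard error 0.19). Of the 4025 exon bases of Bmp5, 1878 are shared with the antisense gene Gm26903 on the opposite strand, which had 0 to 1 counts. Since it is not given whether reads were counted by strand, how this overlap affects the Bmp5 counts cannot be told.

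Bmp7 (ENSMUSG00000008999, chr2:172868012-172940321), a BMP made in the meninges and choroid plexus among other sites, was the most abundant BMP ligand. Its CTRL mice lay at 3.75, 4.06 and 4.36 log2 CPM at the lowest, median and highest, and the DPAn-6 mice at 3.95, 3.85, 3.46, 3.52 and 3.93. The 2 DPAn-6 mice of 12 months lay below every CTRL mouse, and the other 3 lay within the CTRL range. Bmp7 came to a log2 fold change of −0.34 in edgeR's fit (standard error 0.13, adjusted p = 0.225), and the exact permutation test gave p = 0.0442. It was −0.18 without CTRL replicates 2, 3 and 5.

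Bmp4 (ENSMUSG00000021835, chr14:46383520-46390669), which directs precursors towards astrocytes and marks newly formed oligodendrocytes, spread widely in both groups. CTRL values were 0.89, 1.42 and 1.72 log2 CPM at the lowest, median and highest, and DPAn-6 values were 1.64, 1.38, 0.79, 0.85 and 1.60. The 2 DPAn-6 mice of 12 months lay below every CTRL mouse, and the 3 of 14 months lay above the CTRL mean of 1.34. Bmp4 came to a log2 fold change of −0.09 in edgeR's fit (standard error 0.20, adjusted p = 0.888), and to 0.01 without CTRL replicates 2, 3 and 5. At 12 months the DPAn-6 mean minus the CTRL mean was −0.53 log2 CPM and at 14 months it was 0.21, and the difference between the ages had an unadjusted p of 0.0888 by edgeR. For Bmp6 the same differences were −0.74 at 12 months and −0.54 at 14 months. None of the 10 genes had an unadjusted p below 0.05 for the difference between the ages.

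Relative levels of the 10 genes were compared per length, as CPM per kb of exons. The highest were the receptors Tgfbr1 with 7.19 ± 2.05 (SD, n = 12) and Tgfbr2 with 6.92 ± 0.88 CPM per kb (SD, n = 12). Tgfb3 followed with 5.36 CPM per kb, then Tgfb1 with 3.99, Bmp7 with 3.84, Tgfbr3 with 2.64, Bmp6 with 2.38, Tgfb2 with 2.29 and Bmp4 with 1.12. Bmp5 was lowest with 0.376 CPM per kb. Neighbours in this order that did not differ by more than the spread of their ratio over mice were Tgfbr1 and Tgfbr2, Tgfb1 and Bmp7, Tgfbr3 and Bmp6, and Bmp6 and Tgfb2. In DPAn-6 mice alone the order of 2 of these pairs was the other way round, with means of 6.18 for Tgfbr2 and 6.13 for Tgfbr1, and of 1.94 for Tgfb2 and 1.79 CPM per kb for Bmp6. The mean levels of both receptor kinases were above those of all 7 ligands, and Tgfb3 had the highest mean level of the 3 TGF-beta ligands.

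**Figure D2:**
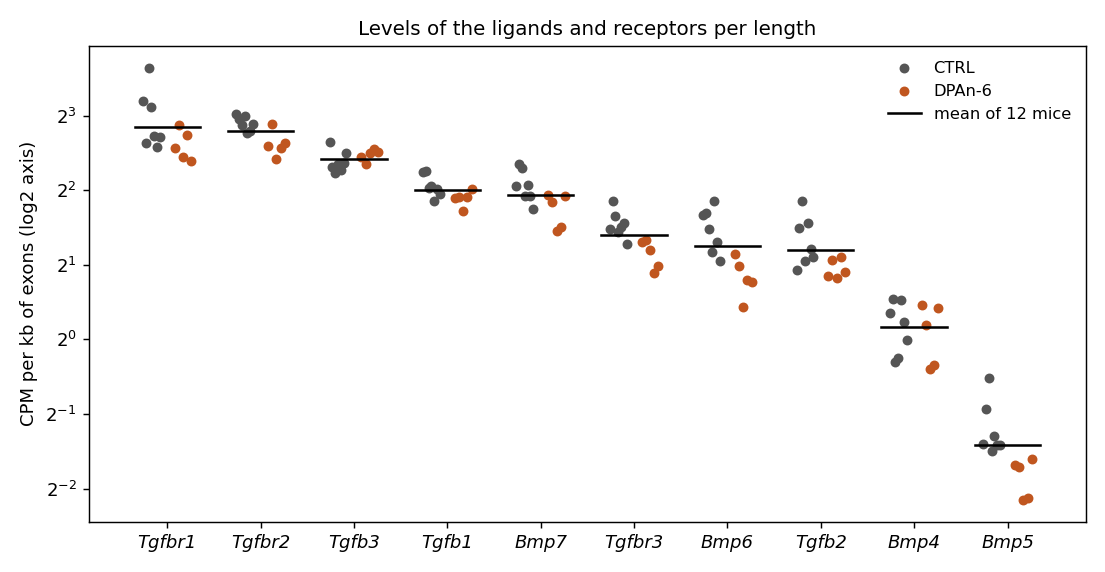
CPM per kb of exons for each gene in each mouse, on a log2 axis, with CTRL in grey, DPAn-6 in orange and a bar at the mean of the 12 mice. Levels ran from 7.19 CPM per kb for Tgfbr1 to 0.376 for Bmp5.

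How the genes varied among themselves was described after each group was centred on its own mean. Of the 45 pairs, 34 had a positive correlation of log2 CPM over the 12 mice, with a median r of 0.303. An unadjusted permutation p below 0.05 was found for 7 pairs and none passed after adjustment over the 45 pairs. Bmp5 and Bmp7 had the highest correlation (r = 0.863, rho = 0.868, permutation p = 0.00168, adjusted p = 0.0756), and r was 0.910 without the mice farthest from the median of Bmp5, CTRL replicate 3 and DPAn-6 replicate 3. Bmp6 and Bmp7 had an r of 0.714 (rho = 0.789, permutation p = 0.0154, adjusted p = 0.206). Tgfb2 and Tgfb3 had the most negative r of −0.72 (rho = −0.58, permutation p = 0.0235, adjusted p = 0.206), which was −0.56 without CTRL replicates 3 and 5. All values come from the same libraries, so what moves a whole library moves both genes of a pair.

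The gene outside the 10 with the most similar pattern over the 12 mice, by r of centred log2 CPM, was Arhgap21 for Tgfb2 (r = 0.964), Fgfr2 for Tgfb3 (r = 0.931) and Ccdc190 for Tgfb1 (r = 0.923). For the receptors it was St8sia6 for Tgfbr1 (r = 0.966), Nckap1l for Tgfbr2 (r = 0.923) and Gm47135 for Tgfbr3 (r = 0.849). For the BMPs it was Irf5 for Bmp4 (r = 0.932), Antxr1 for Bmp5 (r = 0.950), Gimap1 for Bmp6 (r = 0.870) and Fgr for Bmp7 (r = 0.948). Each is the highest of all genes tested and is given as a description.

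The other genes of the pathway were read from lists of 97 genes by role, of which 83 were tested. Of these, 57 had a log2 fold change below 0 and 26 above 0, with a median of −0.10. An unadjusted p below 0.05 was found for 14 that were lower (16.9%, against 9.02% of all genes tested) and 8 that were higher (9.64%, against 5.51%), and 68.7% lay below 0, against 51.3%. After adjustment over all genes tested, 3 passed, namely Inhba, which was higher, and Acvr2b and Col1a2, which were lower. With single mice left out this count ranged from 0 to 14, being 0 without DPAn-6 replicate 2 or 4 and 14 without CTRL replicate 3. It was 0 with the leptomeningeal, the choroid plexus or the microglial marker list as covariate, and other marker lists were not fitted.

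Inhba encodes the activin A subunit, a ligand of the family that neuronal activity induces. It rose from 2.26 ± 0.30 (SD, n = 7) to 2.99 ± 0.20 log2 CPM (SD, n = 5), a log2 fold change of 0.70 (standard error 0.15) with an adjusted p of 0.0299 by edgeR. Its adjusted p was below 0.05 in 14 of 28 alternative analyses and in 4 of 12 with a mouse left out, and the log2 fold change was 0.76 without CTRL replicates 2, 3 and 5. Of the 11 ligands tested beside the 10 genes, 7 lay below 0 and 4, Inhba included, above 0. Acvr2b, a type II receptor that binds activins, was lower by edgeR with a log2 fold change of −0.55 (standard error 0.13, adjusted p = 0.0490), from 3.17 ± 0.25 (SD, n = 7) to 2.66 ± 0.18 log2 CPM (SD, n = 5). It passed in 5 of 28 alternatives and in 2 of 12 with a mouse left out, and it did not pass without CTRL replicates 2, 3 and 5 (log2 fold change −0.49, adjusted p = 0.0593 by edgeR). Of the 14 receptors and co-receptors tested beside the 10 genes, 9, Acvr2b included, lay below 0 and 5 above 0. Col1a2, a fibrillar collagen gene that TGF-beta induces and fibroblasts express, was lower by edgeR with a log2 fold change of −0.69 (standard error 0.13, adjusted p = 0.0170), from 4.39 ± 0.19 (SD, n = 7) to 3.71 ± 0.30 log2 CPM (SD, n = 5), and its DPAn-6 values were all lower than its CTRL values. Col1a2 passed in 20 of 28 alternatives and in 9 of 12 with a mouse left out, and had −0.71 without CTRL replicates 2, 3 and 5. In the list of 14 target genes, 11, Col1a2 included, lay below 0 and 3 above 0, with a median log2 fold change of −0.32. Those above 0 were Klf10 at 0.38 (standard error 0.11), Id2 at 0.16 (0.07) and Junb at 0.15 (0.21). An unadjusted p below 0.05 by edgeR was found for 5 that were lower and 2 that were higher, against 9.02% and 5.51% of all genes tested. The list includes the collagen genes Col1a1, Col1a2 and Col3a1.

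No gene of the other 4 lists passed after adjustment. Of the 8 SMAD genes, 6 lay below 0 and 2 above 0. Smad6, an inhibitory SMAD that BMP signalling induces, had a log2 fold change of −0.67 (standard error 0.18, adjusted p = 0.0838 by edgeR), and Smad3, which carries the TGF-beta signal, had −0.20 (standard error 0.07, adjusted p = 0.187 by edgeR). All 13 tested genes for latency and activation of TGF-beta had a log2 fold change below 0, with a median of −0.10, and 1 had an unadjusted p below 0.05 by edgeR, against 9.02% of all genes tested. Thbs1, a matrix protein that can activate latent TGF-beta, had the smallest p of them, with a log2 fold change of −0.76 (standard error 0.22, adjusted p = 0.10 by edgeR), followed by Ltbp4, which binds latent TGF-beta to the matrix, with −0.20 (standard error 0.11). Among 13 secreted antagonists and modulators, 7 lay below 0 and 6 above 0. The BMP antagonist Nog had a log2 fold change of 0.41 (standard error 0.11, adjusted p = 0.0765 by edgeR) and Crim1, a membrane protein that binds BMPs, had −0.24 (standard error 0.06, adjusted p = 0.0811 by edgeR). Among 10 inhibitors in the cell or its membrane, 4 lay below 0 and 6 above 0, with Tgif1 at −0.45 (standard error 0.20) and Fkbp1a at 0.11 (standard error 0.07).

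**Figure D3:**
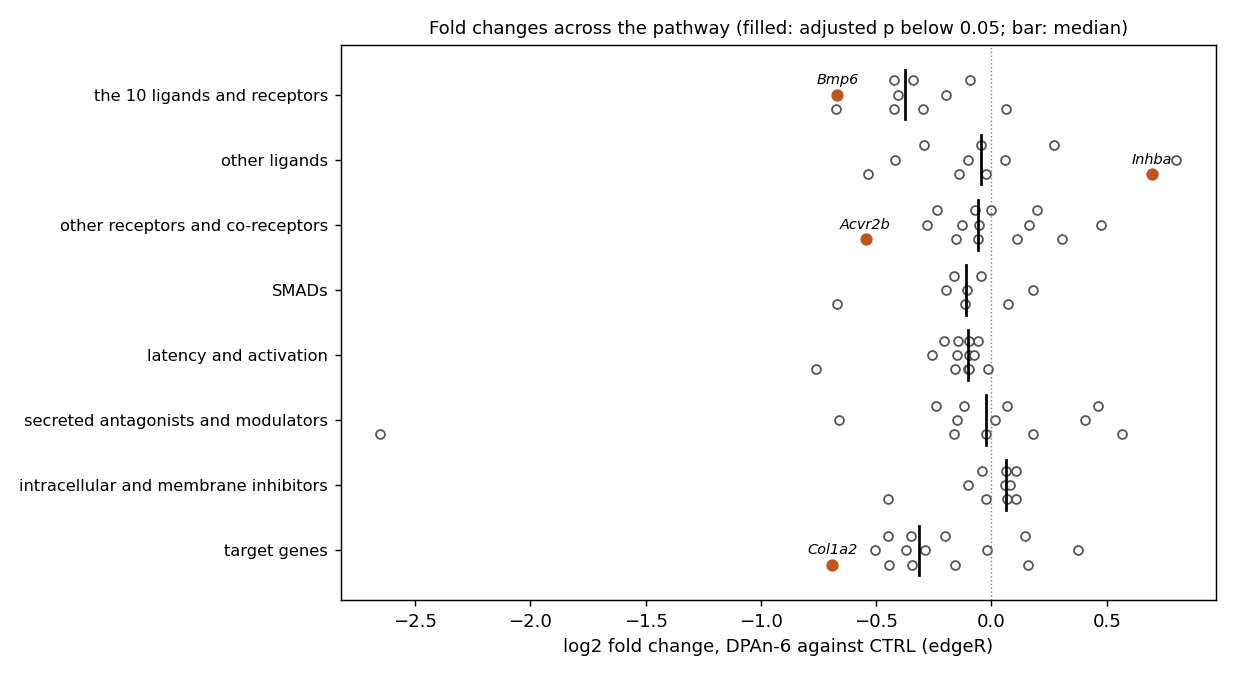
The log2 fold change of DPAn-6 against CTRL (x axis) for the 10 ligands and receptors and for the tested genes of each pathway list (rows), where filled points have an adjusted p below 0.05 by edgeR and bars are medians. The medians were −0.37 for the 10 genes and −0.32 for the target genes, and between −0.11 and 0.06 for the other lists.

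Markers of several cell types moved with the groups. All 12 leptomeningeal fibroblast markers had a log2 fold change below 0 and 6 had an adjusted p below 0.05 by edgeR, with Slc13a4 the most negative at −1.30. Their summed level was 135 to 276 CPM in CTRL and 78.2 to 158 CPM in DPAn-6, and 4 of the 5 DPAn-6 sums were lower than any CTRL sum. The 12 microglial markers were all below 0, with 4 past the adjusted threshold and Olfml3 the most negative at −1.19, and their sum did not overlap between CTRL (890 to 1263 CPM) and DPAn-6 (661 to 860 CPM). The 12 mural cell markers were also all below 0, led by Myh11 at −0.76, with 1 past the adjusted threshold and sums of 382 to 421 CPM against 326 to 354 CPM. Of the 12 choroid plexus markers, 6 were tested, all below 0 with none past the adjusted threshold by edgeR and 5 at an unadjusted p below 0.05, and Ttr was the most negative at −6.01. The choroid plexus sum was 1730, 225 and 1073 CPM in CTRL replicates 2, 3 and 5, and 9.81 to 37.9 CPM in the other 9 mice. Of the 12 endothelial markers 6 lay above 0, with Tie1 farthest from 0 at 0.22, and of the 12 astrocyte markers 2 lay above 0, with Slc1a2 farthest at −0.42. Of 12 markers of oligodendrocyte precursors and new oligodendrocytes 6 lay above 0, and Enpp6 at 0.67 was the 1 past the adjusted threshold. Of 12 markers of mature oligodendrocytes 10 lay above 0, with Ugt8a farthest at 0.42, and of 12 neuronal markers 11 did, with Camk2a farthest at −0.21. At an unadjusted p below 0.05 by edgeR, 7 mature oligodendrocyte markers were higher and none was lower. Lower at that level were 10 leptomeningeal, 10 microglial, 7 mural cell and 4 astrocyte markers, and none of these lists had a higher one. Endothelial and neuronal markers had 1 in each direction, and those of oligodendrocyte precursors and new oligodendrocytes 2 higher and 1 lower. Of all genes tested, 5.51% were higher and 9.02% lower.

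**Figure D4:**
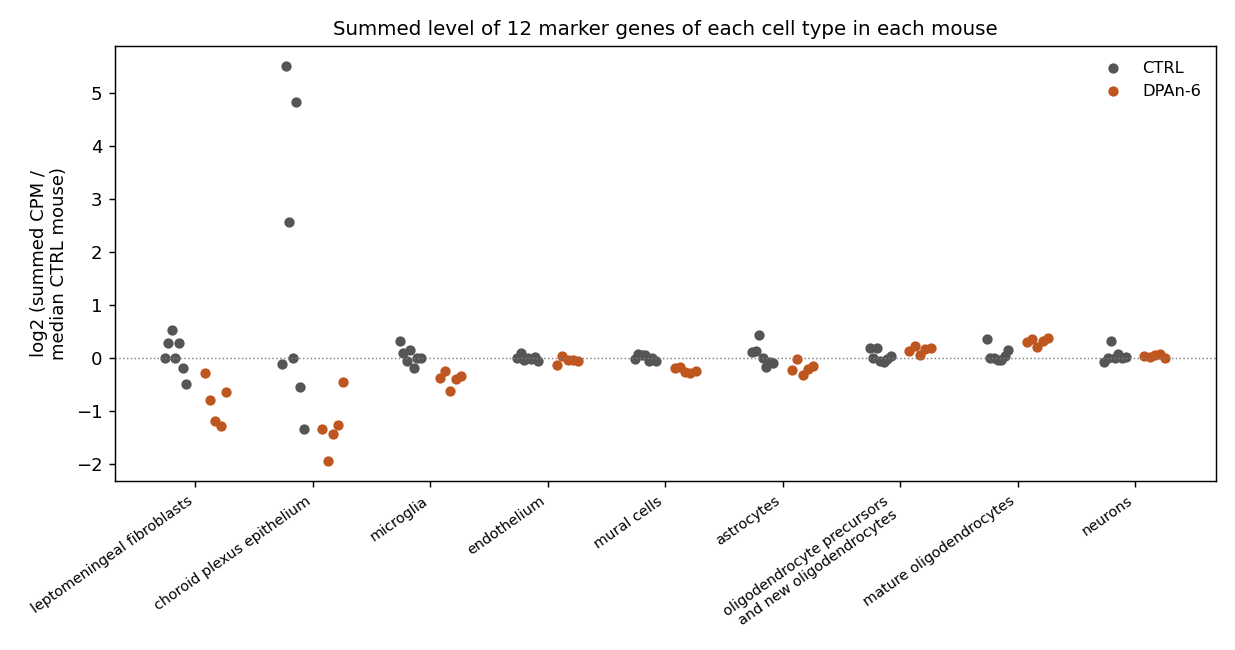
Summed CPM of the 12 markers of each cell type in each mouse, as the log2 ratio to the median CTRL mouse (y axis), with CTRL in grey and DPAn-6 in orange. The groups did not overlap for microglia and mural cells, and CTRL replicates 2, 3 and 5 were far above the other mice for choroid plexus.

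The 10 genes were fitted again by edgeR with the mean log2 level of a marker list as covariate. With the leptomeningeal list, the log2 fold change (standard error in parentheses) was −0.30 (0.25) for Bmp6, −0.23 (0.34) for Bmp5, 0.05 (0.19) for Bmp7 and −0.30 (0.20) for Tgfbr3. It was 0.01 (0.30) for Tgfbr1, −0.18 (0.14) for Tgfbr2, −0.09 (0.15) for Tgfb1 and −0.31 (0.28) for Tgfb2. Tgfb3 had −0.02 (0.15) and Bmp4 0.24 (0.32) with this list, and none of the 10 had an unadjusted p below 0.05. With the microglial list, Tgfbr1 had 0.27 (0.26), Tgfbr2 0.03 (0.11), Tgfb1 0.10 (0.14) and Tgfb3 0.18 (0.155). Bmp6 had −0.60 (0.28), Bmp5 −0.40 (0.39), Bmp7 −0.12 (0.23), Bmp4 −0.15 (0.37), Tgfbr3 −0.39 (0.21) and Tgfb2 −0.46 (0.29), and again none had an unadjusted p below 0.05. The choroid plexus list left 3 of the 10 at an unadjusted p below 0.05, with −0.43 (0.16) for Bmp6, −0.32 (0.10) for Tgfbr2 and −0.31 (0.13) for Tgfbr3. No gene of all those tested had an adjusted p below 0.05 with the leptomeningeal or the microglial list, whose levels separated most or all mice by group, so the group and these lists cannot be told apart in this design. With CTRL replicates 2, 3 and 5 left out together, 5 of the 10 genes had an unadjusted p below 0.05 by edgeR. For this fit and those with marker lists, the share of all genes tested at that level was not counted.

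**Figure D5:**
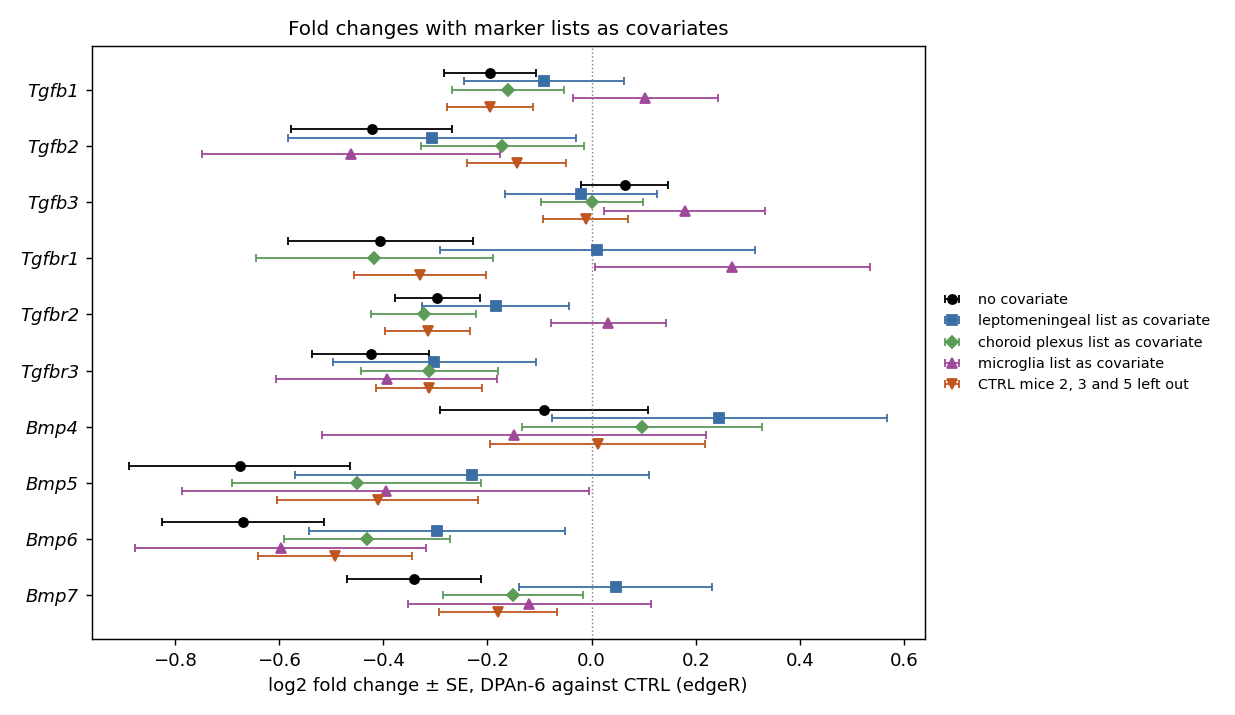
The log2 fold change ± standard error of each gene by edgeR, without covariate, with each of 3 marker lists as covariate, and with CTRL mice 2, 3 and 5 left out. With the microglial list Tgfbr1, Tgfbr2, Tgfb1 and Tgfb3 lay above 0, of which Tgfb3 also did so without covariate. With the leptomeningeal list Bmp6 moved from −0.67 to −0.30 and Tgfbr1 from −0.41 to 0.01.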

How the data were processed

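The authors made poly(A)-selected libraries from cortex RNA, aligned the reads with STAR 2.5.3a to GRCm38 and deposited the counts of each gene in 1 table, not normalized. Whether reads were counted by strand is not given in the sources used here. No columns of the table were left unused. Symbols, positions and exon lengths came from GENCODE M21 (GRCm38), which held 50339 of 50563 identifiers. From the counts, log2 CPM (pseudocount 0.5, library totals) was computed, and groups were compared with edgeR 4.0.16 in R 4.3.3 (TMM, filterByExpr by group, glmQLFit, glmQLFTest, no covariate), with Benjamini-Hochberg adjustment over all 15688 genes tested. For each of the 10 genes, mean log2 CPM was compared over all 792 assignments of 7 and 5 mice (exact permutation test, two-sided). Correlations used 100000 permutations within groups. The tests were tested on simulated data. Replicates are separate mice, and no 2 libraries of the same group agreed within sampling noise. Libraries of different groups were not compared in this way. Alternatives were limma 3.58.1 (voom, the study's method, with and without sample weights), DESeq2 1.42.0, other scalings and filters, age, Xist, Ttr and marker lists as covariates, 14-month mice only, a replicate block and each mouse left out. Leaving out CTRL replicates 2, 3 and 5 together was added after the data were seen. Tables were handled with pandas 2.3.3, numpy 2.4.6 and scipy 1.17.1 under Python 3.11.15. The 10 genes, the pathway and marker lists and the tests were chosen with earlier results of these data known. Of the pathway lists, genes with an adjusted p below 0.05 are named, otherwise the 2 with the smallest p per list. The target genes with a log2 fold change above 0 and the collagen genes among the targets are named as well. Of each marker list the gene with the fold change farthest from 0 is named.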

Additional observations from a re-analysis of the deposited data

How the results depend on the processing

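The counts of genes with an adjusted p below 0.05 depended on the method: of the 10 ligands and receptors 1, of the other pathway genes 3 and of all genes 243 passed by edgeR, against 3, 10 and 696 by DESeq2 and 3, 14 and 1267 by limma-voom with sample weights. None of the 10 passed by limma-voom without weights (Bmp6 adjusted p = 0.0528), with library totals alone or with age as covariate. With Ttr as covariate 0 of the 10, 0 pathway genes and 17 of all genes passed, with the choroid plexus list 0, 0 and 35, with the leptomeningeal or the microglial list 0, 0 and 0, and in 14-month mice only 0, 0 and 9. The number of the 10 with an unadjusted p below 0.05, which was 8, became 1 with Ttr, 0 with the leptomeningeal list, 3 with the choroid plexus list, 0 with the microglial list and 3 in 14-month mice. With CTRL replicates 2, 3 and 5 left out together it was 5, and 5 pathway genes and 541 of all genes passed after adjustment. The share of all genes at an unadjusted p below 0.05 was counted only by edgeR with all mice and no covariate. In that fit 9.02% were lower and 5.51% higher, so the counts of the 10 in other settings have no share beside them. The replicate numbers are not labelled as pairs of mice. Correlations of same-numbered mice ran from −0.125 to 0.226. Those of differently numbered mice were not computed, so whether the mice were paired cannot be told from them. With a replicate block 0 of the 10, 1 pathway gene and 79 of all genes passed. Leaving out each mouse in turn gave 0 to 3 of the 10, 0 to 14 pathway genes and 64 to 953 of all genes after adjustment, 5 to 8 of the 10 at an unadjusted p below 0.05, and 4 to 6 by exact permutation (6 with all mice). The highest count, 953, and 3 of the 10 came without CTRL replicate 3. With TMM-scaled values and all mice, 7 of the 10 had a p below 0.05 by exact permutation, Tgfb1 included (p = 0.0341). Of the 45 pairs, 0 passed with all mice, 1 with TMM-scaled values and 0 to 3 with a mouse left out. The sign of the log2 fold change turned for 6 of the 10 genes in some settings, and the cause was not tested: Tgfb3 to −0.027 with Ttr, −0.020 with the leptomeningeal list and −0.011 without CTRL replicates 2, 3 and 5; Bmp4 to 0.17 with Ttr, 0.24 with the leptomeningeal list, 0.10 with the choroid plexus list, 0.15 in 14-month mice, 0.012 without CTRL replicates 2, 3 and 5, and from −0.18 to 0.019 with a mouse left out, above 0 without DPAn-6 replicate 3 or DPAn-6 replicate 4; Tgfbr1 to 0.011 with the leptomeningeal list and 0.27 with the microglial list; Bmp7 to 0.046 with the leptomeningeal list; and Tgfb1 to 0.10 and Tgfbr2 to 0.032 with the microglial list. Bmp5 with 14 to 43 counts and Bmp4 with 27 to 80 counts per mouse were the least precisely measured.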

Other observations

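Within a library, ratios between genes of the same class do not depend on the scaling of the library. These were looked at after the values of the genes had been seen and are given as descriptions with no test. Tgfb3 made up 43.8% ± 4.1 (SD, n = 7) of the summed CPM per kb of the 3 TGF-beta ligands in CTRL and 49.6% ± 2.2 for DPAn-6 mice (SD, n = 5), and Tgfb2 made up 21.3% ± 4.9 (SD, n = 7) and 17.3% ± 1.3 (SD, n = 5). The ranges of both shares overlapped between the groups. Of the 4 BMP ligands, Bmp6 made up 32.5% ± 2.8 (SD, n = 7) for CTRL mice and 27.6% ± 2.6 for DPAn-6 mice (SD, n = 5), Bmp4 13.3% ± 2.3 (SD, n = 7) and 16.4% ± 1.9 (SD, n = 5), and Bmp7 49.0% ± 3.4 (SD, n = 7) and 51.7% ± 1.7 (SD, n = 5). Of the 12 ratios within a class, the log2 ratio of Bmp5 to Bmp7 was the 1 whose groups did not overlap. It ran from −3.46 to −2.82 in CTRL and from −3.64 to −3.53 in DPAn-6. Bmp5, with 14 to 43 counts per mouse, did not overlap between the groups by itself either. How often ratios of other gene pairs did not overlap was not measured. The log2 ratio of Tgfbr1 to Tgfbr2 was 0.05 ± 0.36 (SD, n = 7) for CTRL mice and −0.02 ± 0.15 for DPAn-6 mice (SD, n = 5), and that of Bmp5 to Bmp6 was −2.67 ± 0.38 (SD, n = 7) and −2.68 ± 0.21 (SD, n = 5).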
